A study of Drosophila melanogaster with 2 samples.

Results

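Castor peaks in DNA between genes numbered 215 in whole Drosophila melanogaster embryos, out of 2427 peak summits on the chromosome arms (8.86%, 95% Wilson interval 7.79 to 10.1). A summit is the position of highest enrichment within a peak. Summits were taken from the union of the conservative combined peak list and the other, pooled combined list, with a row present in both counted once. A summit was kept when it lay outside every annotated gene body and more than 500 bp from every transcript start of the Ensembl annotation. Of the remaining summits, 1482 lay within 500 bp of a start and are called promoter summits, and 730 lay inside genes but farther than 500 bp from a start. Of the 215 intergenic peaks, 139 were in both combined lists, 22 in the conservative list only and 54 in the pooled list only.

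Castor, the product of cas, is a zinc-finger transcription factor. Neuroblasts, from which the fly nerve cord is built, express it late in a fixed succession of temporal factors. In fly genomes, DNA between genes holds enhancers, insulators and silencer elements that act on starts some distance away, and the gene nearest to a peak need not be the one it acts on. The study measured occupancy by chromatin immunoprecipitation and sequencing in a transgenic strain, cas-GFP, that expresses Castor fused to enhanced green fluorescent protein (eGFP), with an antibody against the tag. Whole embryos of 0 to 24 hours were used, in 1 group of 2 biological replicates, after sonication to fragments of 200 to 800 bp. Each peak therefore averages over all tissues and stages, and a site used in few cells cannot be told apart from one used weakly in many. No untagged or differently treated group was analysed here, so no comparison between conditions exists. Read totals are absent from the lists, and sequencing depth is therefore unknown.

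The 101 bases around the summits of 6 of the 8 strongest intergenic peaks are shown first, because they are among the highest signals described below. The strongest and the fourth strongest are described without sequence. They were read from the RefSeq assembly of release 6 (dm6) and are written on its forward strand, 5′ to 3′. Capitals mark every match, on either strand, to 1 of 19 short words. Most of these are known from fly regulatory DNA, but TATCGA and ATCGAA come from earlier results of these data and CACACA is a repeat, and none of these occurs in the windows shown here.
upstream of foxo (chr3R:14053562-14053662): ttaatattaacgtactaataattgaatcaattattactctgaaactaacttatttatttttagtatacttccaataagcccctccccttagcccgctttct
upstream of lncRNA:CR45643 (chr3R:16222436-16222536): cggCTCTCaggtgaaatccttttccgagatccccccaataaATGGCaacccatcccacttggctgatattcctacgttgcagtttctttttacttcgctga
chinmo cluster, farthest of 3 from chinmo (chr2L:1632797-1632897): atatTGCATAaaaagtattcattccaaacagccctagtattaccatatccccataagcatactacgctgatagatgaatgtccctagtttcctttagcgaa
chinmo cluster, middle of 3 (chr2L:1638721-1638821): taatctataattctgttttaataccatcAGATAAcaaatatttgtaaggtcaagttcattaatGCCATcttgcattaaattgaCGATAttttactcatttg
chinmo cluster, nearest of 3 to chinmo (chr2L:1643405-1643505): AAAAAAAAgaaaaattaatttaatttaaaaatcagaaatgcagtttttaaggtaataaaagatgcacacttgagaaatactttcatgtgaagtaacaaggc
upstream of sp3 (chr3R:21520308-21520408): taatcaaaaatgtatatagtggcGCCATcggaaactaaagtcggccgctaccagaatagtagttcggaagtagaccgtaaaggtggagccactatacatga
The foxo window held none of the 19 words. The lncRNA:CR45643 window held GAGAG, read by GAGA factor, and GCCAT, the core read by the Polycomb group protein pho, which the sp3 window held too. The 3 windows of the chinmo cluster shared no word. The farthest from chinmo held TGCATA, part of the su(Hw) insulator site, and the nearest held a run of T on the reverse strand. The middle one held AGATAA, the core read by GATA factors, as well as the pho core and CGATA, which BEAF-32 reads.

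A further peak of the same neighbourhood lay closest to chinmo itself and was chosen for display after its values were seen.
upstream of chinmo itself (chr2L:1649681-1649781): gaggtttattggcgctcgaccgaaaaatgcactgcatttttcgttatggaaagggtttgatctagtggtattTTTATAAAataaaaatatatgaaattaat
It held TATAAA, the letters of a TATA box, on both strands in overlapping copies. A match to a word is a description of these letters and does not show that the factor was bound.

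The strongest group of intergenic peaks lay upstream of chinmo, a gene for a BTB zinc-finger protein that sets the temporal identity of neurons. A 20910 bp gap between lncRNA:CR44603 and lncRNA:CR45695 on 2L (1626022-1646931) held 5 of the peaks, and a further one lay between lncRNA:CR45695 and chinmo. Signals below are the authors' own values for each peak, first in the combined lists and then in each replicate's own ranked list. The peak 18411 bp upstream of the chinmo start had a signal of 240.5, with 143.8 in replicate 1 and 99.32 in replicate 2. The one 7803 bp upstream had 216.1, with 120.7 and 98.75. The one 12487 bp upstream had 189.4, with 78.29 and 101.7. These were the fifth, sixth and eighth strongest of the 215, and each passed the threshold in both replicates, with the replicates in opposite order at the middle one.

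The other 3 were weaker. The peak 1527 bp upstream of chinmo (summit 2L 1649731) had 113.3, with 41.38 in replicate 1 and 75.15 in replicate 2. Those at 22852 and 16924 bp upstream had 78.51 and 72.16 and passed the threshold in replicate 1 only. Their replicate 1 values were 48.29 and 47.49, and their replicate 2 values were 30.25 and 24.23. From 50 kb before to 50 kb after chinmo there were 9 summits in all, of which 6 were intergenic, 2 were promoter summits and 1 lay within a gene.

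**Figure D1:**
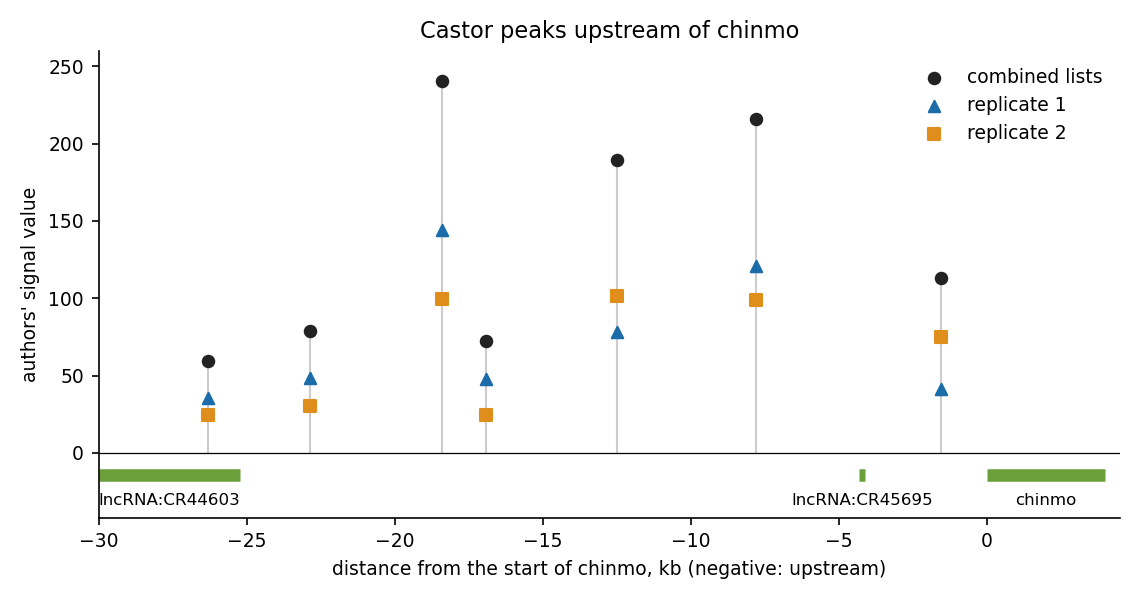
Authors' signal value (y axis) of the 7 Castor peaks within 30 kb upstream of the chinmo start, against distance from that start in kb (x axis). Circles are the combined lists, triangles replicate 1 and squares replicate 2, and green bars are annotated genes. The peaks at 18411, 12487 and 7803 bp upstream stand highest, between 189.4 and 240.5 in the combined lists, and the leftmost of the 7 lies inside lncRNA:CR44603 and is not intergenic.

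The strongest intergenic peak of all lay beside a Polycomb group gene. Its summit (2R 13035359, peak 13035243-13035434) was in a 36783 bp gap, 27448 bp past the end of Su(z)2, which encodes a RING finger protein related to Psc, and 9336 bp from the end of CG13323. The signal was 399.3, with 217.2 in replicate 1 and 177.9 in replicate 2. Psc, the neighbouring gene of the same family, bordered a 10284 bp gap with 3 further peaks. These had signals of 70.30, 42.17 and 20.51, and the weaker pair shared a single replicate 1 entry of 30.15. The short gap between the polyhomeotic genes ph-d and ph-p on X held 2 peaks, of 56.21 and 34.44, whose summits lay 211 bp apart and which rested on the same entries of 25.33 in replicate 1 and 31.26 in replicate 2. In the counts here and below, a gene borders a peak if it flanks the gap or holds the start nearest to the peak. Of 22 Polycomb and trithorax group genes, 4 (18.2%) bordered an intergenic peak, beside 259 of all 13968 protein-coding genes (1.85%). These 4 genes form 2 pairs of neighbours, so the count rests on 2 places in the genome. The lists were chosen with earlier results known, and no test was made of them. The shares here and below also do not allow for gap length, and a longer gap offers more DNA in which a peak can lie.

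Next in signal came a peak upstream of foxo, the forkhead transcription factor that insulin signalling restrains. It lay 3333 bp from the start (summit 3R 14053612) with a signal of 332.0, and had 148.8 in replicate 1 and 180.4 in replicate 2. A further peak 1294 bp away, 4627 bp upstream of foxo, had 102.2, with 63.01 and 39.54. Both passed the threshold in each replicate. The peak 909 bp upstream of lncRNA:CR45643 (summit 3R 16222486) had 281.3, with 133.5 and 155.9. Between the ends of blw, which encodes a subunit of ATP synthase, and CycB, which encodes cyclin B, a peak (summit 2R 22802966) had 246.3, with 120.1 and 126.6. These 2 genes converge on a gap of only 1340 bp. The peak 570 bp upstream of sp3 (summit 3R 21520358) had 213.1, with 76.52 in replicate 1 and 136.6 in replicate 2, and its other neighbour was the homeobox gene C15.

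The remaining 4 of the 12 strongest ranged from 154.8 to 188.7. A peak of 188.7 (112.3 in replicate 1, 73.02 in replicate 2) lay in a 75047 bp gap on 3L between NijA, which encodes the cell surface protein Ninjurin A, and CG43245. Of the whole set, this gap and the one beside chinmo held the most peaks, 5 each. The other 4 in the NijA gap were weaker, with signals of 46.01, 52.51, 75.58 and 86.21. A peak of 187.8 lay 11011 bp from the start of tRNA:Ile-TAT-1-2, in a gap with 2 others of 57.14 and 90.72. One of 159.2 lay 1227 bp upstream of stck, which encodes an adaptor protein of integrin adhesions, with Atg13, an autophagy gene, on its other side. One of 154.8 lay in a 437 bp gap between the ends of Sol1 and the cytochrome P450 gene Cyp9f2. All 12 of the strongest passed the threshold in both replicates.

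The 215 peaks were spread over 172 gaps between genes, of which 141 held a single peak, 24 held 2 and 7 held 3 or more. A gap of 17787 bp beside scyl, which encodes an inhibitor of TOR signalling, held 4 peaks of 50.87 to 95.27. The gaps between CG5958 and CG5973 and between lncRNA:CR44761 and Ppa, an F-box gene, held 3 each, with highest signals of 97.20 and 60.44.

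The median signal of the intergenic peaks was 63.15 (range 2.613 to 399.3), beside 71.3 for promoter summits and 64.3 for summits within genes. Differences between these classes were not tested. In the replicates' own ranked lists, 210 of the 215 had an entry in replicate 1 (median 33.49) and 208 in replicate 2 (median 33.84). A missing entry does not show that the replicate had no signal there, because those lists were made for each replicate alone. Where both had an entry (n = 203), the median log2 of replicate 1 over replicate 2 was 0.07 (SD 0.66), and 22 peaks differed by more than 2-fold. That is 10.8%, beside 11.6% of promoter summits and 9.82% of summits within genes. Signals were not rescaled between lists here, so the median ratio carries any difference in scale between the replicates. Spearman's rho over these 203 peaks of the same pair of libraries was 0.361, beside 0.563 for promoter summits and 0.484 for summits within genes. Among the 50 peaks that passed the threshold in both replicates, the SD of the log2 ratio was 0.48, 1 peak differed by more than 2-fold, and rho was 0.569. Among the other 153 the SD was 0.71, 21 differed by more than 2-fold, and rho was -0.134. Passing the threshold in both lists itself requires high values in both, and the other 153 peaks are those without this. Both groups were thus chosen by the values being compared, which limits what rho and the SD within each can show.

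Support from the replicates' own thresholded lists was partial. A peak that passed the threshold in both replicates covered 50 of the 215 (23.3%, 18.1 to 29.3), against 35.6% (33.2 to 38.1) of promoter summits and 27.5% (24.4 to 30.9) of summits within genes, differences that were not tested. A further 41 were called in replicate 1 only and 32 in replicate 2 only. The remaining 92 (42.8%, 36.4 to 49.5) reached the threshold only when the replicates were combined. Wilson intervals here and below run over peaks and cover counting error only.

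**Figure D2:**
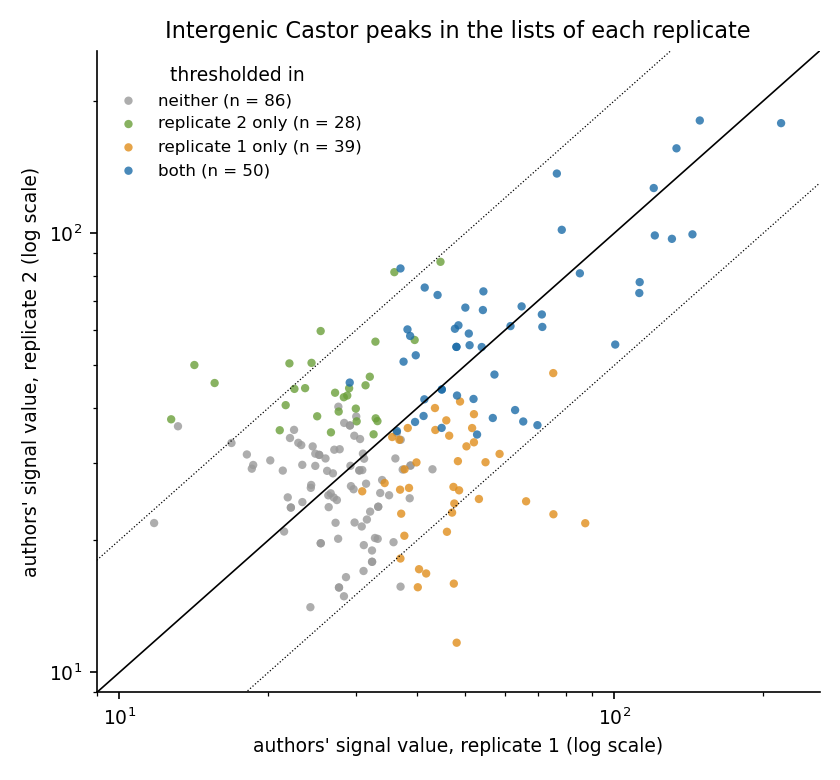
Authors' signal value in replicate 2 (y axis) against replicate 1 (x axis), both on log scales, for the 203 intergenic peaks with an entry in both replicates' ranked lists, coloured by where a thresholded peak overlapped. The solid line marks equal values and the dotted lines 2-fold differences. Peaks called in both replicates sit to the upper right, and 22 of the 203 lie beyond the dotted lines.

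The weakest peaks lay close to other peaks. Of the 215 peaks, 9 had a signal under 10, and each of these had another summit within 310 bp, the usual peak width. In all, 30 peaks (14%) had a neighbouring summit within 310 bp. The CTCF-word peak beside upd2, which encodes a cytokine of the JAK/STAT pathway, was one, with a signal of 47.90 and a neighbour 208 bp away.

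Intergenic peaks were denser near starts and in short gaps. The arms held 38972211 eligible bp (28.3%), outside genes and more than 500 bp from every start, giving 5.52 peaks per Mb. Unknown bases (N) and repeats were not removed, so part of this DNA may be unable to hold a peak. The bins below leave out DNA beyond the outermost genes of each arm. From 501 to 1000 bp from a start there were 47 peaks, or 16.3 per Mb. The density was 10.5 per Mb from 1001 to 2000 bp, 7.2 from 2001 to 5000 bp, 3.82 from 5001 to 10000 bp and 3.31 from 10001 to 20000 bp. Beyond 20000 bp there were 8 peaks, or 0.951 per Mb. Gaps of up to 2000 bp held 21.6 peaks per Mb and those over 50000 bp held 0.986. Median signal showed no such order, lying between 59.9 and 65.0 in all 6 distance bins. The rule used the distance to starts, so these are descriptions without a test, and the 2 scales overlap because short gaps hold only DNA near genes.

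**Figure D3:**
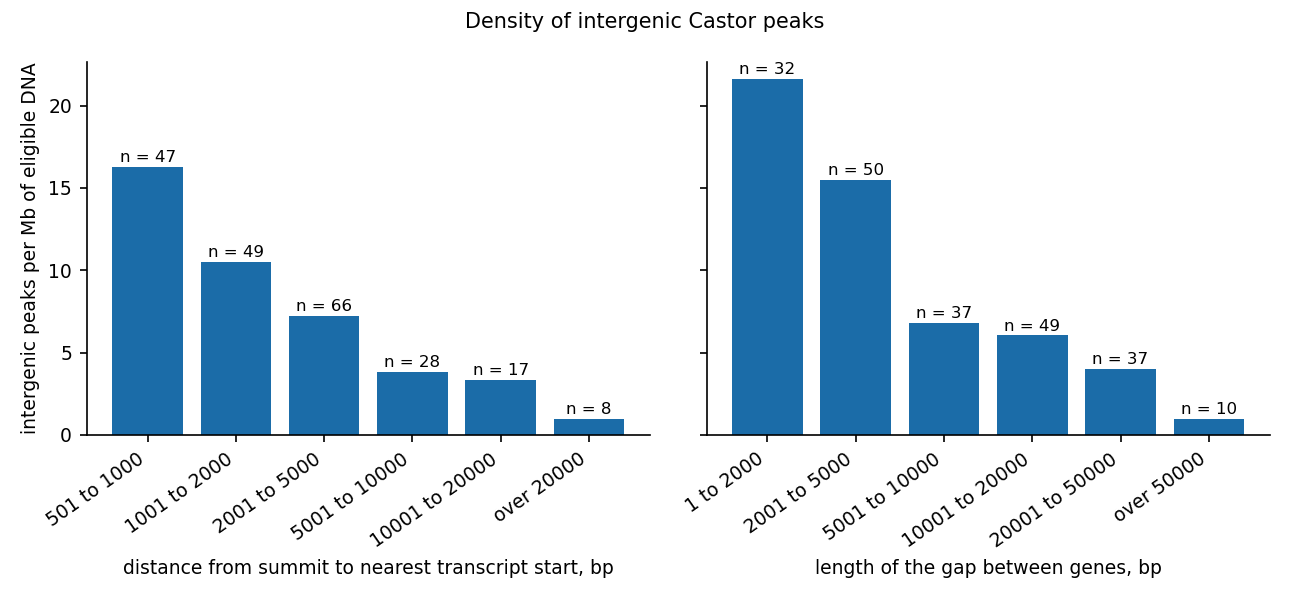
Intergenic peaks per Mb of eligible DNA (y axis), by distance from the summit to the nearest transcript start (left) and by length of the gap between genes (right), both in bp, with the number of peaks above each bar. Bars fall from 16.3 to 0.951 per Mb on the left and from 21.6 to 0.986 on the right.

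The median distance to the nearest start was 2345 bp (508 to 198256 bp). The summit was upstream of that start in 135 and downstream in 80. The start belonged to a protein-coding gene in 160, to a noncoding RNA gene in 48, to a tRNA gene in 4, to a snoRNA gene in 2 and to a pseudogene in 1. Gaps between divergent genes held 6.95 peaks per Mb, those between convergent genes 5.67 and those between genes on the same strand 5.27. By arm, 2L had 7.45 per Mb (50 peaks), 3L 6.94 (63), 3R 5.21 (40), X 5.08 (27), 2R 4.57 (34) and the fourth chromosome 4.08 (1), and Y had none in 2508570 bp.

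The margin itself split a continuous range. From 401 to 500 bp from a start, outside gene bodies, there were 16 summits with a median signal of 57.5, and from 501 to 600 bp there were 16 intergenic peaks with 58.9. Just inside the margin were summits at CG17896 (487 bp, signal 333.1), CG6602 (487 bp, 92.99) and asRNA:CR43964 (478 bp, 64.00). Just outside were the peaks at lncRNA:CR45292 (508 bp, 127.7), SsRbeta, which encodes a subunit of the translocon-associated complex (510 bp, 51.67), and dikar (519 bp, 34.96).

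The 5 peaks farthest from any start were all on 3L. The farthest lay 198256 bp from the pseudogene CR14578, in the 399173 bp gap between Dbp80 and lncRNA:CR46482. It had a signal of 49.71 and an entry in replicate 2 only (33.51). Its central 36-base stretch occurs 11 times, counted over every sequence of the assembly and not the arms alone. Reads from such copies can be placed in more than one way, and their part in this peak was not tested. A further pair, of 86.21 and 52.51, lay in the NijA gap, 36629 and 32936 bp from CG43245. The peak 33864 bp downstream of the start of vvl, a POU-domain gene, had 73.61, with 24.44 in replicate 1 and 50.64 in replicate 2. The last, upstream of the fatty acid synthase gene FASN3, had 52.53 and an entry in replicate 2 only. Only 1 other peak of the 215 had a central 36-base stretch that recurs, with 2 copies, between lncRNA:CR44619 and the purine synthesis gene Paics (signal 77.12). The summit of 1 peak lay in an annotated transposon insertion.

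Of 10 genes on a list for temporal series of neuroblasts, 2 forkhead genes bordered a peak (20%, beside 1.85% of all protein-coding genes). They were slp2 and slp1, which is also on the segmentation and Hox list below, and they shared the same peak (summit 2L 3832535). It had a signal of 107.0 and 51.05 in replicate 2, and no overlapping entry in the replicate 1 list. None of 22 neuroblast and progenitor genes, 20 genes of neuronal function, 16 Notch pathway genes or 8 Sox genes bordered one, and at the share of 1.85% among all protein-coding genes a count of 0 in lists of this size is near that background. For cas itself (3R 5712975-5716805) the nearest intergenic peak was 585850 bp away, with a signal of 65.41.

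Regulators of neuronal identity bordered peaks in 5 of 23 cases (21.7%, beside 1.85% of all protein-coding genes). Of these, zfh1, a zinc-finger homeodomain gene, had the strongest, at 103.5, with 75.31 in replicate 1 and 22.90 in replicate 2. It sat in the 422 bp between the ends of zfh1 and wts, which encodes a kinase of the Hippo pathway. The gap beside vvl held the peak of 73.61 named above and another of 71.24. The peak 3860 bp upstream of zfh2 had 59.77 (47.38 and 15.92), the one 398 bp past the end of eya had 54.42 (31.50 and 26.88), and the one 6145 bp upstream of en had 48.17 (16.84 and 33.27). None of these 6 peaks passed the threshold in both replicates. Their gaps ranged from 422 to 70507 bp, and the share of genes was not adjusted for gap length.

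Other developmental lists were represented by 1 to 3 peaks each, where 1.85% of all protein-coding genes bordered a peak. Among 30 segmentation and Hox genes, slp1, en and wg (10%) bordered one, and the wg peak, nearer to Wnt4, had 51.34. The forkhead gene bin of the visceral mesoderm had one 1334 bp upstream of its start, at 66.63, with 42.90 in replicate 1 and 28.99 in replicate 2. It was the only one of 17 mesoderm and muscle genes to border a peak. Of 12 glial genes bdl did (82.37, with 41.31 and 41.83), and of 14 ecdysone response genes the nuclear receptor gene Eip75B did (51.35, with 32.83 and 20.22). Of 17 genes of midgut, trachea, fat body and haemocytes, vvl did, as above. Of 92 ribosomal protein genes RpL17 and RpS7 bordered peaks (2.17%), with signals of 60.91 and 10.33, and of 73 mitochondrial ones none did. In lists of this size, both counts are near the share of 1.85% among all protein-coding genes. Of 115 cuticle genes 1 did (Cpr76Ba, 131.0), and of 179 chemoreceptor genes 1 did (Gr89a, 88.75).

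The DNA at the summits was richer in A and T than its surroundings. The central 101 bp held 36.4% ± 9.98 G and C (SD, n = 215), and windows 500 bp away on a random side held 40.9% ± 10.7. Not all of these flanks were intergenic. Of them, 172 (80%) were centred in intergenic DNA, 26 (12.1%) within 500 bp of a start and 17 (7.91%) within genes. The centre was lower in 137 of the 215 (63.7%). The paired difference was -4.57 ± 14.8 percentage points (SD), so single peaks varied far more than the mean shift. All intergenic windows of this length in the arms (n = 382018) averaged 40.7%. Promoter centres (36.9%) and centres within genes (36.2%) had nearly the same composition. Around intergenic summits the dip was narrow: the bins centred 113 bp before and 112 bp after the summit were at 40.06% and 41.36%. The paired difference was -7.16 in the conservative list, -7.24 in the stronger 50% of peaks, -7.46 in replicate 1 alone and -5.05 in replicate 2 alone. It was smaller in the pooled list (-4.13) and with the flank on the opposite side (-3.92).

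**Figure D4:**
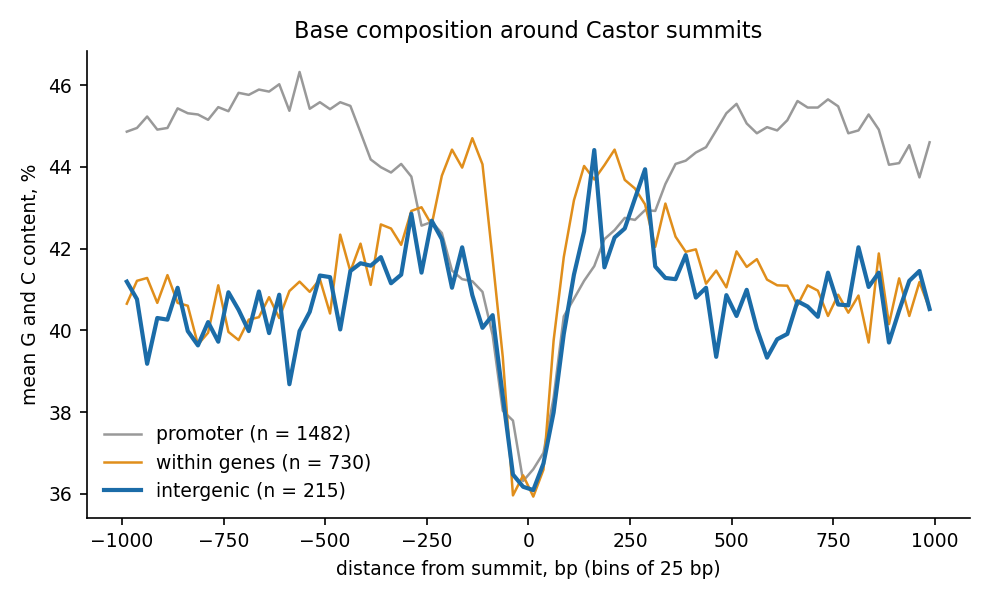
Mean G and C content in percent (y axis) in bins of 25 bp against distance from the summit in bp (x axis), for intergenic peaks, promoter summits and summits within genes. All 3 lines reach their lowest value at the summit, 36.09% for intergenic peaks, 36.31% for promoter summits and 35.93% for summits within genes.

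Stronger intergenic peaks had less G and C. With the 215 divided by signal into 4 nearly equal groups, the mean was 32.7% ± 7.69 in the strongest group, then 33.8% ± 7.3, 37.0% ± 11.9 and 41.9% ± 9.87 in the weakest (SD over peaks). The strongest group had 39 of 54 peaks called in both replicates and the next had 7 of 54. The third group had 0 of 53 and the weakest 4 of 54. Each of these 4 lay 200 to 211 bp from a stronger summit and can share its replicate entries. They are also among the 50 peaks called in both replicates. In the 2 weaker groups, 37 and 45 peaks were called in neither replicate alone. Base composition thus moved together with replicate support and with signal, and their separate parts were not tested.

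**Figure D5:**
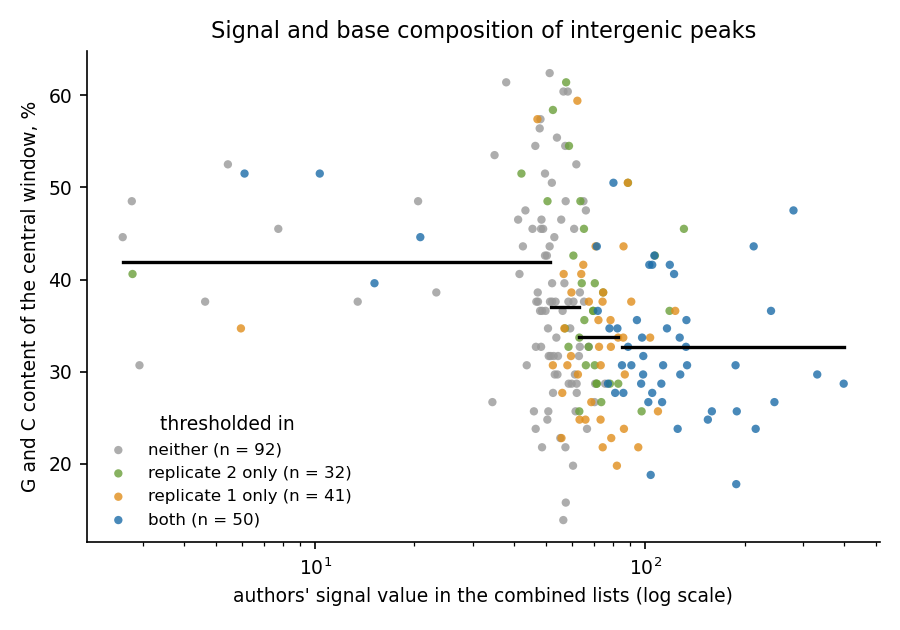
G and C content of the central 101 bp in percent (y axis) against the authors' signal in the combined lists (x axis, log scale) for the 215 intergenic peaks, coloured by where a thresholded peak overlapped. Black bars give the mean of each of the 4 groups by signal, which runs from 32.7% in the strongest to 41.9% in the weakest.

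No 6-base word stood out at the summits against the flanking DNA. Each of 2080 words, joined with its reverse complement, was compared between the centres and the flanks. These were the flanks described above, 172 (80%) of them centred in intergenic DNA. Pairs in which a single side held the word entered a two-sided exact binomial test, with Benjamini-Hochberg adjustment at 0.05. The test called 0 words higher (0%) and 0 lower (0%), and at an unadjusted p under 0.05 there were 65 higher and 63 lower. The smallest p belonged to AACTAA, present in 28 centres (13%) and 8 flanks (3.72%), with an adjusted p of 0.374 by the exact test. It was also in 9.78% of promoter centres and 10.7% of centres within genes. Set against a shuffle of each centre that keeps its dinucleotides, 1 word passed, TGGAAA, in 37 centres against 5 shuffled ones (adjusted p = 0.000139, exact binomial test). It was in 8.84% of the flanks, 9.31% of promoter centres and 10% of centres within genes, against 17.2% of intergenic centres. With the margin around starts set to 200 bp, which gave 345 peaks, 8 words were called higher and 6 lower by the binomial test against flanks.

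Long words of known factors were rare among intergenic summits, and 5 of the 6 windows that held one are shown with it in capitals. All are from the same assembly and strand as above, and they were chosen after their values were seen.
between slp1 and slp2, motif 1 (chr2L:3832485-3832585): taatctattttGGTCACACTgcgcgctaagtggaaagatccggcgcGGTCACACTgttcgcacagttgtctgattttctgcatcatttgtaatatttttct
beside jp, CTCF core (chr2L:9567457-9567557): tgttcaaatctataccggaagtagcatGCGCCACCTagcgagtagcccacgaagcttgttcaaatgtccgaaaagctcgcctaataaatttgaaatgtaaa
beside upd2, CTCF core (chrX:18239451-18239551): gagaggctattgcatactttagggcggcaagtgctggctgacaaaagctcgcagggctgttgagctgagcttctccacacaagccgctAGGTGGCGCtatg
beside Ids, replication element (chr3L:3382066-3382166): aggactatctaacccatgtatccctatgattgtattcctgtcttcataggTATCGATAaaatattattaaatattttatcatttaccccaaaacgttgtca
beside RpL17, replication element (chrX:6741239-6741339): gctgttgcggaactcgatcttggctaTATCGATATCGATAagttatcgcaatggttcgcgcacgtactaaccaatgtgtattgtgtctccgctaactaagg
The core of the CTCF site, AGGTGGCGC, was in 3 centres (1.4%, 0.476 to 4.02), against 0.202% of promoter centres, 0.274% of centres within genes and 0.0445% of all intergenic windows of 101 bp. Its share was 0.595% with a margin of 1000 bp around starts and 0.87% with 200 bp. The strongest holder, 634 bp upstream of CG14762, had a signal of 118.5, with 35.93 in replicate 1 and 81.46 in replicate 2. The one beside jp, the gene for junctophilin, had 106.6 (69.91 and 36.53), and the one beside upd2 had 47.90 (25.51 and 19.67). The DNA replication-related element TATCGATA, bound by DREF, was in 2 (0.93%, 0.255 to 3.33), against 4.18% of promoter centres, 0.137% of centres within genes and 0.22% of all intergenic windows. These had 66.10 beside Ids, which encodes a lysosomal sulfatase, and 60.91 beside RpL17, where overlapping copies formed one run. Promoter motif 1, GGTCACACT, occurred in 1, the peak between slp1 and slp2, in 2 copies, against 1.55% of promoter centres and 0.0487% of all intergenic windows.

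Shorter words varied less. CGATA, read by BEAF-32 and part of the replication element, was in 13.5% of intergenic centres (9.56 to 18.7), against 22.1% of promoter centres, 10.3% within genes and 10.7% of all intergenic windows. Runs of 6 T, found in sites of hunchback-type zinc fingers, were in 22.8% (17.7 to 28.8), against 24.6%, 26% and 19.9%. TATAAA was in 16.7% of the centres and 11.2% of the flanks, against 20.3% of promoter centres, 22.3% within genes and 12.6% of all intergenic windows. GAGAG was in 14% of both centres and flanks, and GCCAT in 14% of centres and 15.8% of flanks. All intergenic windows had GAGAG in 11.2% and GCCAT in 19.4%. TGCATA was in 10.2% of centres and AGATAA in 4.19%, against 6.85% and 5.85% of all intergenic windows. CAGGTA, read by Zelda, was in 3 centres (1.4%), against 2.22% of all intergenic windows, 1.48% of promoter centres and 1.51% within genes. The E-box CAGCTG was also in 3 centres (1.4%, 0.476 to 4.02), against 3.43%, 5.53% and 4.25%. The homeodomain core TAATTA was in 7.44%, the Sox core AACAAT in 8.84% and the POU octamer ATGCAAA in 2.33%, against 7.39%, 11.2% and 4.32% of all intergenic windows. Words overlap each other and depend on base composition, and differences between classes were not tested.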

How the data were processed

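Peak lists on dm6 were deposited by the authors for each replicate (thresholded and ranked by irreproducible discovery rate) and for both combined. Per the deposited README texts, the lists were derived from alignments and further files, and how reads were aligned and peaks called is not given in the sources used here. Signal values are those the authors deposited for each peak, and how they were computed or scaled is not given in the sources used here. No scaling between lists was added. The signal was used only to describe, rank and filter peaks. A per-replicate value is that of the overlapping entry with the highest signal (at least 1 bp of overlap) in the replicate's ranked list. The word "called" refers to its thresholded list. A weak peak beside a strong one can therefore carry the replicate values of its neighbour. The combined ranked lists were not used, and input libraries were not analysed here.

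Genes and starts came from Ensembl release 115 (BDGP6.54) and bases from the RefSeq release 6 assembly, whose arm lengths equal those of dm6. Annotated transposon insertions were not counted as genes. Coordinates are 1-based. A neighbour is a gene on either side of the gap or the gene whose start is nearest to the peak. The list counts and the share of all protein-coding genes use both. Named genes are those beside the 12 strongest and the 5 farthest peaks, beside the margin, beside gaps with 3 or more peaks, up to 4 of each list, and cas, unless said otherwise. The members and lists were chosen with earlier results of these data known. The word test was tested on simulated data. Of the listed symbols, 1 had no gene of that name.

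Alternatives were the lists alone, each replicate alone, the stronger 50% of peaks, margins of 200 and 1000 bp, protein-coding genes alone, joined summits, a 50% overlap, a 25 bp half-window, the opposite flank and a shuffle. After the data had been seen, transposons counted as genes and peaks of signal under 10 left out were added. Python 3.11.15 with numpy 2.4.6, scipy 1.17.1, pandas 2.3.3, statsmodels 0.14.6 and matplotlib 3.10.9 was used.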

Additional observations from a re-analysis of the deposited data

How the results depend on the processing

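Of 137 values recomputed under an alternative, 102 stayed within the limit set for them, 35 moved past it and none reversed. The limit was 1.5 times the value for counts of peaks and words, and the Wilson interval for shares. For the rest it was the SD between the replicates' lists. Joining summits within 200 bp left all 215 peaks apart. Its values therefore could not move, and they are among the 102. Replicates alone gave 89 to 93 peaks, a share of 7.45 to 7.78%, a median distance of 2078 to 2316 bp, G and C of 33.1 to 36.8% and a paired difference of -7.46 to -5.05 percentage points, with TATCGATA in 0% of centres, AGGTGGCGC in 1.08 to 2.25%, TTTTTT in 22.5 to 28% and CGATA in 12.9 to 18%. The 200 bp margin gave 345 peaks (14.2%), a median distance of 913 bp, a median signal of 64.4, replicate overlap of 29.6%, a paired difference of -6.55, and 8 words called higher and 6 lower. These included TTAAAA (adjusted p = 0.000233, exact binomial test), in 107 centres against 49 flanks. AGGTGGCGC was in 0.87% of centres under that margin and in 0.595% under the 1000 bp margin. The 1000 bp margin gave 6.92% of summits, 3548 bp and a signal of 62.4. Protein-coding genes alone gave a share of 11.9%. The stronger 50% held 107 peaks with G and C of 33.3%, a paired difference of -7.24, overlap of 43% and a signal of 85.0. The conservative list gave 2106 bp, -7.16, 30.4% and 70.7 for the same measures of distance, paired difference, overlap and signal, and the pooled list a signal of 65.2. Without peaks of signal under 10 the median was 63.5. The 25 bp half-window gave TTTTTT in 11.6% and CGATA in 6.51% of centres, being shorter. The shuffle called 1 word higher. Except where the shorter window or fewer summits set the value, the cause was not tested. No paired analysis was possible because there is 1 group. Unknown depth limits every statement on weak peaks.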
